A study of Homo sapiens with 14 samples.

Results

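HIF target genes outside glycolysis were followed in long-term colonies of SW620, a colorectal cancer cell line grown from a lymph node metastasis. The 36 members were chosen by symbol as known targets of the hypoxia-inducible factors (HIF) that encode no glycolytic enzyme or transporter. The choice was made with earlier results of these data known. All 36 were found among the 36601 genes of the single-cell tables and among the 60624 genes of the bulk tables. Single-cell RNA-seq came from SW620 (carrying an empty FLAG vector per the study's text) and from SW620-TET2CD, called TET2CD here. TET2CD overexpresses the catalytic domain of the DNA demethylase TET2. Both were sampled on days 6, 9, 12 and 15 of culture without passage, with 1 library for each line and day. Bulk RNA-seq came from SW480 and SW620 on day 6 and from cells inside and outside the colonies of SW620 and TET2CD on day 15. Each again had 1 library, and the day 6 labels name no location within the culture. SW480 is a line grown from the primary tumour of the patient who gave SW620. The promoter of the transgene and whether a line is 1 clone are not stated in the sources that were read.

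HIF is a dimer of an oxygen-labile alpha subunit (HIF1A or EPAS1) and a stable beta subunit. In oxygen the EGLN prolyl hydroxylases mark the alpha subunit for destruction through VHL, and at low oxygen it escapes, enters the nucleus and binds the core motif ACGTG or GCGTG at its targets. Besides the glycolytic enzymes, these targets slow growth and mTOR signalling, trim mitochondria, export acid, modify collagen, demethylate histones and store glycogen and lipid, and several of them serve as hypoxia markers in colorectal tumours.

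The 8 single-cell libraries held 5790 to 10713 barcodes each. After the study's limits on genes, UMIs and mitochondrial reads, 48282 cells remained, with 3894 to 8154 cells and 48186195 to 74185723 UMIs a library, so that 3 UMIs stood for 0.0404 to 0.0623 CPM. The median cell held 6640 to 13479 UMIs. Barcodes over the mitochondrial limit made up 6.42% and 6.58% on day 6 and 12.0% to 28.8% on the later days, and 297 barcode sequences occurred in more than 1 library. The 6 bulk libraries held 16470176 to 25840563 expected counts. TET2 stood at 2.11 to 3.90 CPM in the SW620 libraries and at 40.2 to 107 CPM in the TET2CD libraries, which fits the labels. The epithelial markers EPCAM (496 to 639 CPM) and KRT8 (2991 to 4327 CPM) were found in every library. So were KRT18, KRT19, VIL1, CDH1 and CDX2, lowest for CDX2 at 8.99 to 20.4 CPM. The intestinal markers KRT20, LGALS4, CDX1 and CEACAM5 were scarce, at up to 0.965, 1.75, 0.207 and 0.322 CPM. PTPRC, CD3E, MS4A1, HBB and COL3A1, which mark blood and stromal cells, did not pass 0.0591 CPM. Other markers of stromal and myeloid cells were found in every library, with LUM at 4.31 to 27.2 CPM, COL1A1 at 1.15 to 3.35 CPM, LYZ at 5.32 to 31.5 CPM and CD68 at 1.20 to 36.9 CPM.

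Sequences before the start sites are shown first, because the members share a regulator and the core motif is the element it reads. RefSeq promoters (GRCh38.p14, 250 bases before to 50 after the start) were held for 28 members, and 24 of these genes (85.7%) had ACGTG or GCGTG on either strand in at least 1 promoter, beside 52.4% of 27305 genes. The narrower ACGTG was found in 19 of the 28 (67.9%), beside 24.9% of all genes. The palindrome CACGTG, which counts as ACGTG on both strands, was in 8 of 39 member promoters (20.5%), beside 7.26% of 35116. The members were picked as known HIF targets and the promoters were not matched on base composition, so these shares describe the list only. Stretches of 10 members follow 5′ to 3′ on the gene's strand, with both forms of the core motif, on either strand, in capitals. They stop where GENCODE v44 places an exon, and CA9, P4HA1 and PLOD2 are shown as 30 bases around a motif. CA9, DDIT4, ANKRD37, MIR210HG and P4HA1 rose late, DEPP1 rose furthest and holds no motif, PLOD2 rose while PLOD1 did not pass the test, and BNIP3 and CA12 stayed low.
CA9 (chr9:35673898-35673927, +): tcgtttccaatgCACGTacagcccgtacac
DDIT4 (chr10:72273724-72273918, +): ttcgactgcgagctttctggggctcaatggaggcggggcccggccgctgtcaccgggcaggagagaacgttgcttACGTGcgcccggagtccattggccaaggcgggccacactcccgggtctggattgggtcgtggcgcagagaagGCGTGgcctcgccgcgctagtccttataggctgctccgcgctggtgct
ANKRD37 (chr4:185396641-185396810, +): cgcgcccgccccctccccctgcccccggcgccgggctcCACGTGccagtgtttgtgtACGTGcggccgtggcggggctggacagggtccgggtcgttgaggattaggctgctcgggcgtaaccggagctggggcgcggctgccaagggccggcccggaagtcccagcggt
MIR210HG (chr11:568458-568657, -): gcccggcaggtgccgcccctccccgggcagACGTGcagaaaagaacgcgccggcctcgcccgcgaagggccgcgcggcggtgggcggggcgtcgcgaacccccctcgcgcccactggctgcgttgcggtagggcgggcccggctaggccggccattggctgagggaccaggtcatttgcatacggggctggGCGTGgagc
P4HA1 (chr10:73096935-73096964, -): tgtgatcgagctCACGTagcgagggctgca
DEPP1 (chr10:44978810-44979009, -): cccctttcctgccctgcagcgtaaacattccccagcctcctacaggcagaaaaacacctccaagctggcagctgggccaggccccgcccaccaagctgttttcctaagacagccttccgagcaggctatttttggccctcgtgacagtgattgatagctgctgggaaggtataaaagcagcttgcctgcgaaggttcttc
PLOD2 (chr3:146161313-146161342, -): caaacagtccagACGTGgggcccaggaggg
PLOD1 (chr1:11934517-11934693, +): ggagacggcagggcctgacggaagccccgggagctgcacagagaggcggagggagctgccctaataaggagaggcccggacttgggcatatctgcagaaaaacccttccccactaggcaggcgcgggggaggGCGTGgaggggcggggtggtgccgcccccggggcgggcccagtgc
BNIP3 (chr10:131981968-131982123, -): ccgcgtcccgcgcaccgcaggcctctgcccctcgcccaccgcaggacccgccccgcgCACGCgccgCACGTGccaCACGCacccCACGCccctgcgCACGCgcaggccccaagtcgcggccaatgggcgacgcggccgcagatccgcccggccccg
CA12 (chr15:63381847-63382046, -): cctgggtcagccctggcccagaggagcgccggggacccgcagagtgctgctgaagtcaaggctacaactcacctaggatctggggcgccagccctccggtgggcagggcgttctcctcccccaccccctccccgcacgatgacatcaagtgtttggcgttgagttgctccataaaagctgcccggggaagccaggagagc

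The BNIP3 stretch held 6 overlapping or neighbouring matches and those of DEPP1 and CA12 none, although the full promoter of CA12 holds 2 outside the stretch shown. Among the members with a promoter sequence, a core motif was present for 17 of 19 that rose, 6 of 7 that were not called and 0 of 1 that fell. ACGTG alone was present for 15 of the 19, 3 of the 7 and 0 of the 1. MIR210HG is the host transcript of miR-210, the microRNA best known for following HIF. The mature miR-210-3p (chr11:568112-568133, minus strand, GRCh38.p14) is shown because its seed, bases 2 to 8 in capitals, sets its targets, and the microRNA itself was not measured in these libraries.
hsa-miR-210-3p: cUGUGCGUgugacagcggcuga

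Most members rose between the early days (6 and 9) and the late days (12 and 15) of long-term culture. Of 34 members tested, 24 were higher late (70.6%), 1 was lower (2.94%) and 9 were not called by the quasi-likelihood test of edgeR, with p-values adjusted after Benjamini and Hochberg over 16993 genes. Over all genes 29.4% were called higher and 28.3% lower, since the culture changed widely. The median fitted log2 fold change of the members was 1.36, beside 0.04 for all genes. Because the members were chosen with earlier results of these data known, the excess over all genes describes this list only. LOX and STC1 were too low to be tested. In 25 of 36 members all 4 late libraries lay above all 4 early libraries, which held for 30.1% of all tested genes. Divided by the TMM factors that scale the libraries in the fits, these were 24 members and 26.0% of all tested genes. The 36 members summed to 489 to 623 CPM in the early libraries and to 1550 to 1897 CPM in the late libraries.

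**Figure D1:**
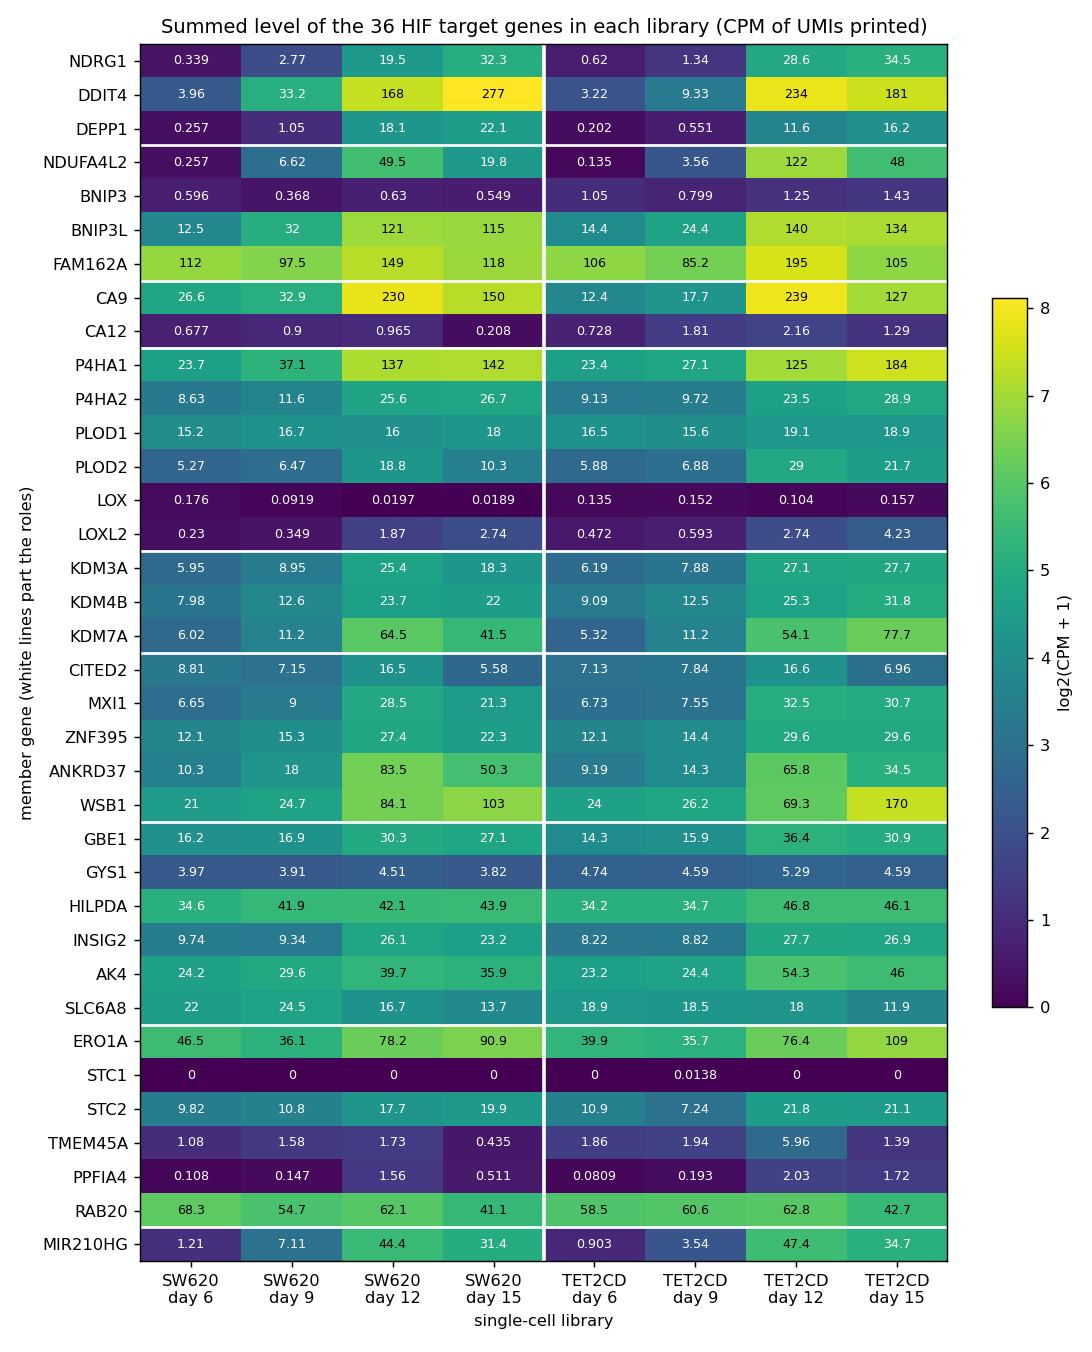
Level of each of the 36 members (rows, grouped by role) in the 8 single-cell libraries (columns), with CPM of summed UMIs printed in each cell and log2(CPM + 1) as colour. The change from dark to light falls between day 9 and day 12 in both lines, while BNIP3, CA12, LOX and STC1 stay dark throughout.

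The 3 growth brakes were among the members that rose most. NDRG1, a hypoxia-responsive suppressor of growth and metastasis, was at 0.339, 2.77, 19.5 and 32.3 CPM in SW620 (days 6, 9, 12 and 15 in this order, as for all members that follow) and at 0.620, 1.34, 28.6 and 34.5 CPM in TET2CD. DDIT4 (also REDD1), which restrains mTORC1, was at 3.96, 33.2, 168 and 277 CPM in SW620 and at 3.22, 9.33, 234 and 181 CPM in TET2CD. DEPP1, a target of FOXO and progesterone signalling linked to autophagy, was at 0.257, 1.05, 18.1 and 22.1 CPM in SW620 and at 0.202, 0.551, 11.6 and 16.2 CPM in TET2CD. For each of these 3 genes the day 9 value lay above the day 6 value in both lines, and no late library reached down to an early one. The fitted log2 fold changes, late over early, were 4.45 (SE 0.51) for NDRG1, 4.22 (SE 0.64) for DDIT4 and 4.99 (SE 0.38) for DEPP1. All 3 passed the edgeR test, with adjusted p = 7.06e-05, 0.000313 and 9.06e-06. DEPP1 lies at chr10:44970981-44978809 on the minus strand and overlaps RASSF4 on the other strand.

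Among the mitochondrial members, NDUFA4L2 and BNIP3L rose and FAM162A and BNIP3 were not called. NDUFA4L2, an NDUFA4 paralog that lowers respiration at low oxygen, was at 0.257, 6.62, 49.5 and 19.8 CPM in SW620 and at 0.135, 3.56, 122 and 48.0 CPM in TET2CD. It peaked on day 12 in both lines, and its log2 fold change was 4.32 with the widest error of the members (SE 0.99, edgeR adjusted p = 0.00372). BNIP3L (also NIX), a receptor for removal of mitochondria, was at 12.5, 32.0, 121 and 115 CPM in SW620 and at 14.4, 24.4, 140 and 134 CPM in TET2CD, a log2 fold change of 2.51 (SE 0.27, edgeR adjusted p = 4.76e-05). Its paralog BNIP3 stayed between 0.368 and 1.43 CPM in all 8 libraries, from 20 to 78 UMIs each, and its log2 fold change was 0.29 (SE 0.23, edgeR adjusted p = 0.30). BNIP3 has 44 annotated pseudogenes, and reads shared with them could not be told apart. FAM162A, a mitochondrial protein that HIF1A induces, was at 85.2 to 112 CPM early and 105 to 195 CPM late. The groups overlapped for FAM162A, with a log2 fold change of 0.39 (SE 0.20, edgeR adjusted p = 0.108).

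CA9 and CA12 encode the membrane carbonic anhydrases that export acid from hypoxic cells. CA9 was at 26.6, 32.9, 230 and 150 CPM in SW620 and at 12.4, 17.7, 239 and 127 CPM in TET2CD. Every late library lay above every early one, day 12 was highest in both lines, and the log2 fold change was 3.03 (SE 0.27, edgeR adjusted p = 1.90e-05). CA12 stayed between 0.208 and 2.16 CPM, with no order between early and late days (log2 fold change -0.07, SE 0.43, edgeR adjusted p = 0.895).

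Of the collagen enzymes, both prolyl hydroxylases rose and the lysine modifiers split. P4HA1, the catalytic prolyl 4-hydroxylase subunit, was at 23.7, 37.1, 137 and 142 CPM in SW620 and at 23.4, 27.1, 125 and 184 CPM in TET2CD, and P4HA2, the alternative subunit, went from 8.63 to 11.6 CPM early to 23.5 to 28.9 CPM late. Their log2 fold changes were 2.29 (SE 0.17) and 1.31 (SE 0.13). PLOD2, the telopeptide lysyl hydroxylase, went from 5.27 to 6.88 CPM early to 10.3 to 29.0 CPM late, with a log2 fold change of 1.54 (SE 0.20, edgeR adjusted p = 0.000148). PLOD1 stayed at 15.2 to 19.1 CPM in all libraries, with a log2 fold change of 0.06 (SE 0.12, edgeR adjusted p = 0.676). LOXL2, a lysyl oxidase that crosslinks collagen, went from 0.230 to 0.593 CPM early to 1.87 to 4.23 CPM late (log2 fold change 2.73, SE 0.26). LOX itself gave 1 to 13 UMIs a library and was not tested.

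**Figure D2:**
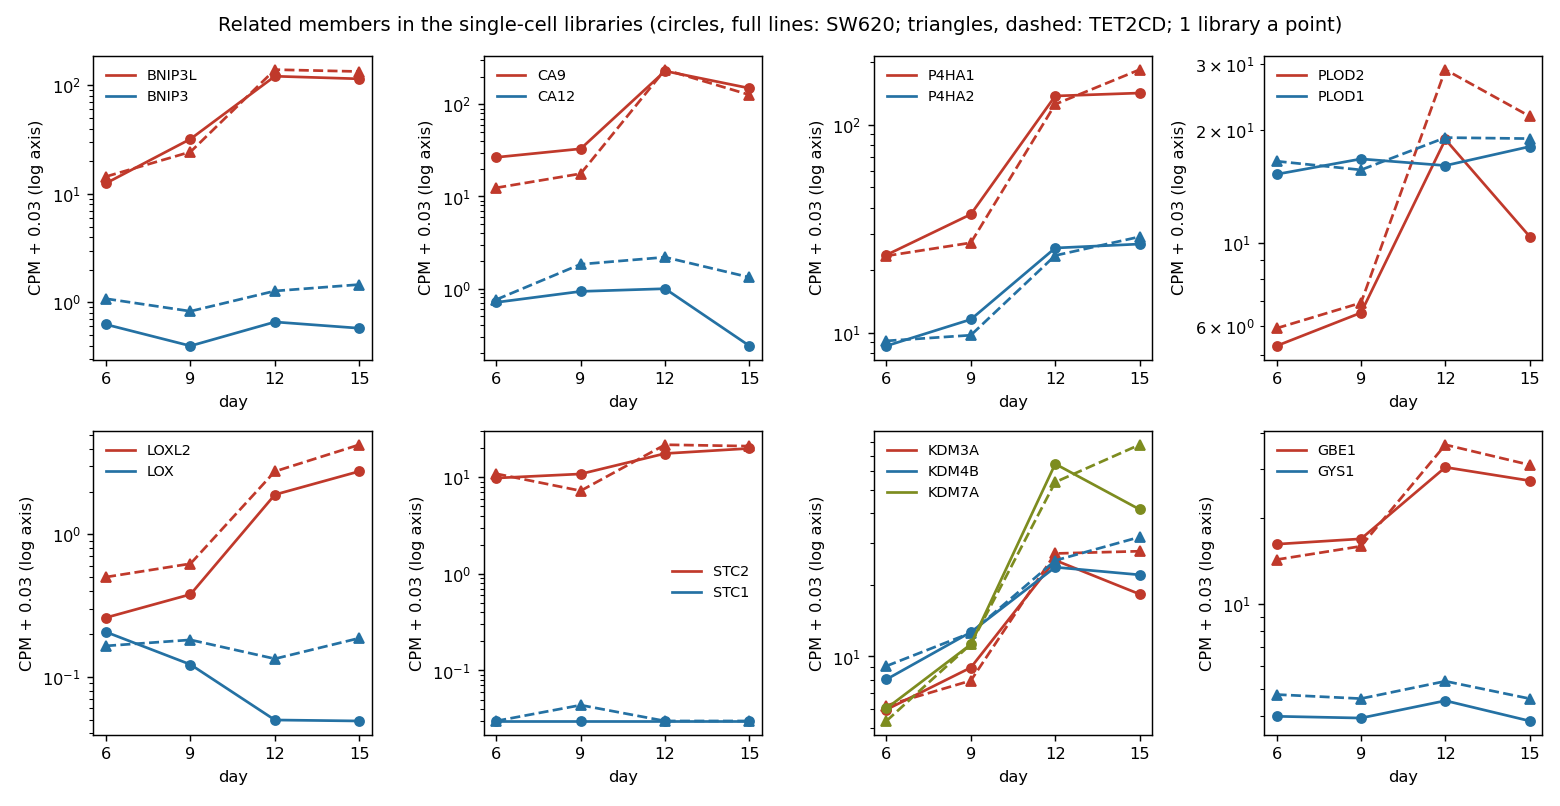
CPM of summed UMIs (log axis, 0.03 added) by day for related members, with SW620 as circles on full lines, TET2CD as triangles on dashed lines and 1 library a point. BNIP3L, CA9, PLOD2, LOXL2, STC2, GBE1, both P4HA and all 3 KDM genes climb between day 9 and day 12, while BNIP3 (0.368 to 1.43 CPM), CA12, PLOD1 and GYS1 had no called late change and LOX and STC1 were not tested.

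The 3 histone demethylases rose together. KDM7A, which removes methyl groups from H3K9 and H3K27, was at 6.02, 11.2, 64.5 and 41.5 CPM in SW620 and at 5.32, 11.2, 54.1 and 77.7 CPM in TET2CD. KDM3A and KDM4B, demethylases of H3K9, were at 5.95 to 8.95 and 7.98 to 12.6 CPM early and at 18.3 to 27.7 and 22.0 to 31.8 CPM late. Their log2 fold changes were 2.69 (SE 0.26) for KDM7A, 1.64 (SE 0.16) for KDM3A and 1.16 (SE 0.16) for KDM4B, with edgeR adjusted p = 2.95e-05, 2.85e-05 and 0.000185.

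Of the transcription and ubiquitin regulators, 4 of 5 rose. ANKRD37, an ankyrin repeat protein, was at 10.3, 18.0, 83.5 and 50.3 CPM in SW620 and at 9.19, 14.3, 65.8 and 34.5 CPM in TET2CD, with day 12 highest in both lines (log2 fold change 2.06, SE 0.27). WSB1, a ubiquitin ligase subunit that acts on VHL, was at 21.0, 24.7, 84.1 and 103 CPM in SW620 and at 24.0, 26.2, 69.3 and 170 CPM in TET2CD, with day 15 highest in both (log2 fold change 2.02, SE 0.23). MXI1, an antagonist of MYC, and ZNF395, a zinc finger factor, had log2 fold changes of 1.79 (SE 0.15) and 0.90 (SE 0.12). CITED2, which competes with HIF1A for its coactivator, was at 16.5 and 16.6 CPM on day 12 and at 5.58 to 8.81 CPM on every other day. Its day 15 values lay below the early ones in both lines, and the late against early difference was not called (log2 fold change 0.44, SE 0.32, edgeR adjusted p = 0.256).

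The metabolic members were mixed. GBE1, the glycogen branching enzyme, INSIG2, which holds back sterol synthesis, and AK4, a mitochondrial adenylate kinase, rose with log2 fold changes of 0.86 (SE 0.12), 1.41 (SE 0.11) and 0.67 (SE 0.14). GYS1, glycogen synthase, was at 3.82 to 5.29 CPM throughout (log2 fold change -0.03, SE 0.14, edgeR adjusted p = 0.852). HILPDA, which guards lipid droplets, was at 34.2 to 41.9 CPM early and 42.1 to 46.8 CPM late. The HILPDA groups overlapped once divided by the TMM factors, and the difference was not called (log2 fold change 0.19, SE 0.11, edgeR adjusted p = 0.171). SLC6A8, the creatine transporter, was the 1 member that fell, from 22.0 and 24.5 to 16.7 and 13.7 CPM in SW620 and from 18.9 and 18.5 to 18.0 and 11.9 CPM in TET2CD (log2 fold change -0.58, SE 0.15, edgeR adjusted p = 0.00782).

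Among the secretory members, ERO1A, the disulfide oxidase of the endoplasmic reticulum, went from 35.7 to 46.5 CPM early to 76.4 to 109 CPM late (log2 fold change 1.05, SE 0.15), and STC2, a secreted glycoprotein also induced by stress of that compartment, from 7.24 to 10.9 CPM early to 17.7 to 21.8 CPM late (log2 fold change 0.94, SE 0.16). PPFIA4, a liprin, rose from 0.0809 to 0.193 CPM to 0.511 to 2.03 CPM (log2 fold change 3.29, SE 0.40). RAB20, a vesicle GTPase, was at 54.7 to 68.3 CPM early and 41.1 to 62.8 CPM late and was not called (log2 fold change -0.33, SE 0.16, edgeR adjusted p = 0.103). TMEM45A, a transmembrane protein, was at 0.435 to 1.73 CPM in SW620 and 1.39 to 5.96 CPM in TET2CD, and STC1 gave 1 UMI over all libraries. MIR210HG, at chr11:565657-568457 on the minus strand, was at 1.21, 7.11, 44.4 and 31.4 CPM in SW620 and at 0.903, 3.54, 47.4 and 34.7 CPM in TET2CD (log2 fold change 3.59, SE 0.53, edgeR adjusted p = 0.000282).

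**Figure D3:**
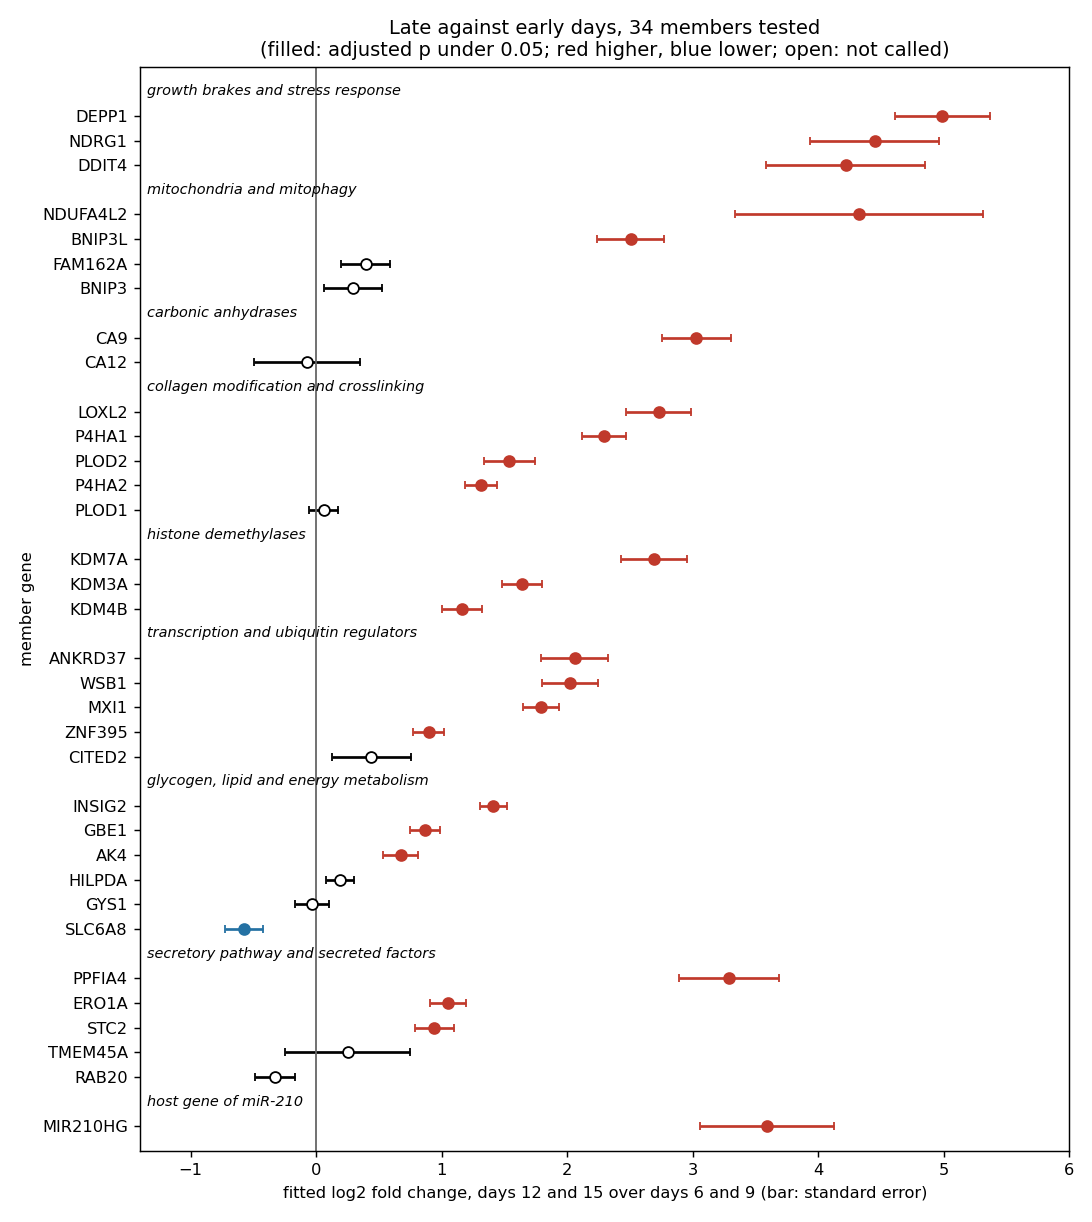
Fitted log2 fold change of days 12 and 15 over days 6 and 9 (x axis, bar 1 standard error) for the 34 members tested, grouped by role. The 24 filled red points lie between 0.67 and 4.99, SLC6A8 in blue at -0.58, and 9 open points were not called.

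Day 12, rather than day 15, was the highest day in both lines for 17 of the 36 members (47.2%), and day 15 was for 7 (19.4%). Over all tested genes the shares were 11.4% for day 12 and 20.4% for day 15. The tally moved with the scaling, and after division by the TMM factors 13 members (36.1%) were highest on day 12 and 8 (22.2%) on day 15, beside 9.57% and 23.5% of all tested genes. BNIP3L, TMEM45A, AK4, GBE1 and CA12 were then no longer highest on day 12 in both lines. CA9, NDUFA4L2, ANKRD37, MXI1 and MIR210HG were so on either scale, and the 7 highest on day 15 were NDRG1, DEPP1, P4HA1, P4HA2, LOXL2, WSB1 and ERO1A. Each day holds 1 library per line, so a difference in handling on a day cannot be told apart from the day.

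Of the genes upstream of the members, HIF1A fell and EPAS1 rose in the single-cell sums. HIF1A, the main alpha subunit, was at 42.7 to 49.2 CPM early and 27.4 to 45.5 CPM late (log2 fold change -0.51, SE 0.10, edgeR adjusted p = 0.00191). EPAS1, the second alpha subunit, was scarce, at 0.0406 to 0.0827 CPM early and 0.374 to 1.90 CPM late (log2 fold change 4.03, SE 0.64, edgeR adjusted p = 0.000422). Its lowest early value, in SW620 on day 6, stood for 3 UMIs. EGLN3, an oxygen sensor that is itself a HIF target, was at 9.83 to 27.1 CPM early and 66.5 to 125 CPM late, and VEGFA, the main angiogenic target, at 6.43 to 13.6 and 74.4 to 102 CPM. Of other lists chosen with earlier results known, 4 of 9 HIF subunits and oxygen sensors were called higher and 2 lower. Of 21 HIF-responsive glycolysis genes 13 were called higher and 3 lower. Their sum did not rise throughout, at 10321 to 12397 CPM early. It was 10948 CPM in SW620 and 14034 CPM in TET2CD on day 12, and 8945 and 8488 CPM on day 15. All 12 mitotic genes were called lower (1611 to 1981 CPM in sum early, 213 to 462 CPM late), and of 12 ATF4 and CHOP response genes 11 were higher and 1 lower. Of 10 dissociation and immediate early genes 4 were higher (1338 to 1947 CPM in sum early, 2035 to 3351 CPM late). Of 7 tested markers of other cell types 5 were higher and 1 lower, summing to 28.4 to 36.1 CPM early and 36.9 to 68.3 CPM late, with CD68 at up to 36.9 CPM and LYZ at up to 31.5 CPM. The part of these changes in the rise of the members was not tested.

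The 24 calls did not rest on a single library or line. Leaving out each library in turn gave 24 to 25 members called higher, and summing both lines per day, so that 2 days stood against 2, also gave 24. SW620 alone gave 23, where AK4 was not called (edgeR adjusted p = 0.103), and TET2CD alone 24, where SLC6A8 was not called (edgeR adjusted p = 0.166). FAM162A and HILPDA passed with upper-quartile factors (edgeR adjusted p = 0.0280 and 0.0172), FAM162A also without TET2CD day 15 (0.0191), and RAB20 passed as lower without TET2CD day 12 (0.0177). With the line as a block, the p-values of the main fit measure the spread between days of a stage within the lines. Libraries of both lines from a day counted as separate units, and no line was cultured again for the same day.

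TET2CD and SW620 were compared over the 4 days, with the day as a block, to ask whether the members differed between the lines. The same lines were sampled on each day, so the p-values measure how steady a difference was over days. Any other difference between the lines cannot be told apart from an effect of the catalytic domain. Of 34 members, 2 were called higher (5.88%) and 3 lower (8.82%), beside 2.48% and 1.84% of 17478 genes. BNIP3 was at 1.05, 0.799, 1.25 and 1.43 CPM in TET2CD and at 0.596, 0.368, 0.630 and 0.549 CPM in SW620, higher on 4 of 4 days (log2 fold change 0.96, SE 0.19, edgeR adjusted p = 0.0132). TMEM45A was at 1.86, 1.94, 5.96 and 1.39 CPM in TET2CD and at 1.08, 1.58, 1.73 and 0.435 CPM in SW620, also higher on 4 of 4 days (log2 fold change 1.01, SE 0.23, edgeR adjusted p = 0.0307). Both genes were scarce. DEPP1 (log2 fold change -0.73, SE 0.12, edgeR adjusted p = 0.00400) and ANKRD37 (log2 fold change -0.46, SE 0.11, edgeR adjusted p = 0.0424) were lower in TET2CD on 4 of 4 days. CA9 was lower on 3 of 4 days and slightly higher on day 12 (log2 fold change -0.65, SE 0.16, edgeR adjusted p = 0.0495). CA12, at 0.728 to 2.16 CPM in TET2CD and 0.208 to 0.965 CPM in SW620, was higher on 4 of 4 days and missed the threshold (log2 fold change 1.00, SE 0.27, edgeR adjusted p = 0.0634).

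Of these 5 line differences, the call of DEPP1 alone was kept with each library left out. None of the 5 was called without the day block, a fit that called 42 genes higher and 4 lower in all, although the log2 fold changes were then 0.96 for BNIP3, 1.12 for TMEM45A, -0.72 for DEPP1, -0.49 for ANKRD37 and -0.27 for CA9. BNIP3 lost its call without SW620 day 9, TET2CD day 9 or TET2CD day 12 (adjusted p = 0.0713, 0.0789 and 0.0506, edgeR), and TMEM45A without either day 12 library (0.149 for SW620, 0.162 for TET2CD). CA9 lost it without either library of day 6 or day 9, and also without the 8% of cells with most UMIs (edgeR adjusted p = 0.0582). ANKRD37 lost it without each library but TET2CD day 15, with edgeR adjusted p of 0.0502 to 0.174. CA12 passed with DESeq2 (adjusted p = 0.0264) and without either library of day 6 (edgeR, 0.0136 and 0.0135). DDIT4 passed as lower in TET2CD without either library of day 12 (edgeR, 0.0225 and 0.0158). NDUFA4L2 passed as higher without TET2CD day 9 (log2 fold change 0.95, edgeR adjusted p = 0.04995).

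Whether the late rise differed between the lines was asked by their interaction, in a fit without the day. Change that both lines shared between days of a stage then counted as error, so the fit could call little. A lack of calls in it does not show that the lines rose alike. The line-by-time interaction called 0 of 34 members by edgeR and 0 of 17478 genes (0%), with 0 members and 141 genes under an unadjusted p of 0.05, and DESeq2 called 0 genes as well. The fitted interaction was positive for 29 of 34 members, a larger rise in TET2CD, with a median of 0.23 beside 0.00 for all genes. NDUFA4L2 had the largest at 2.13 (SE 1.71), followed by DDIT4 at 1.35 (SE 1.08), and CA9 stood at 0.86 (SE 0.45). For DDIT4 and NDUFA4L2 the day 9 value in SW620 lay above that in TET2CD and the day 12 value below it.

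Members were then counted in single cells, each thinned to 2000 UMIs so that depth did not set the count. A cell on days 6 and 9 held 0.924 to 1.20 members on average, and a cell on days 12 and 15 held 2.67 to 3.23. The share of cells with none of the 36 was 32.5% to 38.0% early and 8.24% to 9.08% late. Cells with 5 or more members made up 0.111% to 2.26% early, highest in SW620 on day 9, and 15.1% to 26.5% late. The median cell held 1 member early and 2 to 3 late. Shallower cells left out numbered 18 to 89 a library. No cell type that should lack these genes was in the libraries, so free RNA could not be gauged from them.

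**Figure D4:**
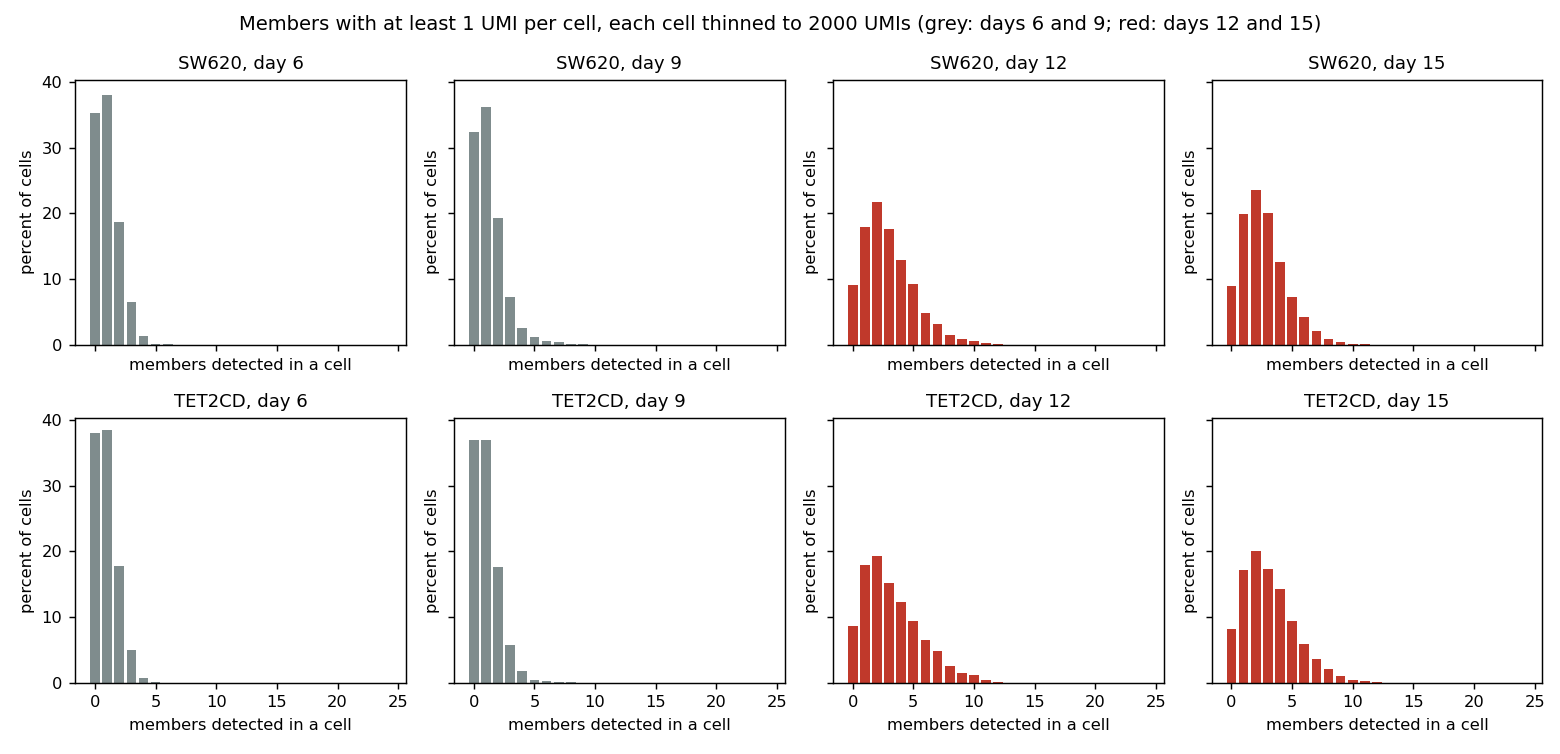
Percent of cells (y axis) by the number of members with at least 1 UMI (x axis) in each library after thinning to 2000 UMIs, early days in grey and late days in red. The whole distribution moves to the right on days 12 and 15, with the share of cells at 0 falling from 32.5% or more to 9.08% or less.

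Cells of a library differed in the members' summed UMIs. Their variance over their mean, which is 1 for random sampling of like cells and grows with the mean where cells differ, was 1.07 in SW620 and 1.01 in TET2CD on day 6, 1.76 and 1.32 on day 9, and 2.18 to 3.22 late. The squared coefficient of variation beyond random sampling, which does not grow with the mean in this way, was 0.0622 and 0.00684 on day 6, 0.578 and 0.299 on day 9, and 0.355 to 0.539 late, so that on this scale SW620 on day 9 lay above every late library. CA9 was found in 5.35%, 6.73%, 36.03% and 25.4% of SW620 cells over the 4 days and in 2.39%, 3.56%, 36.7% and 21.8% of TET2CD cells. Without thinning these shares were 26.1%, 18.8%, 83.1% and 58.8% in SW620 and 9.85%, 15.2%, 82.3% and 56.6% in TET2CD, at median depths of 6640 to 13479 UMIs. DDIT4 went from 0.796%, 4.52%, 21.9% to 32.0% of thinned SW620 cells and from 0.665%, 1.80%, 25.4% to 24.0% of TET2CD cells. RAB20, which was not called, went from 10.3% to 12.3% of cells early to 7.40% to 12.1% late. Exact intervals on these shares cover counting error only, since cells of a library are not replicates.

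Across cells of a library, the members' summed UMIs went with those of the glycolysis list, with r of -0.04 to 0.36 early and 0.46 to 0.60 late over 3876 to 8123 cells. Cells with a higher share of mitochondrial UMIs held fewer member UMIs late (r of -0.55 to -0.23) and showed no such relation early (r of -0.02 to 0.01). The correlation with mitotic genes was -0.08 to 0.01 over all libraries. Late r was 0.12 to 0.37 for the ATF4 and CHOP response genes and 0.08 to 0.28 for the epithelial and intestinal markers. For the dissociation and immediate early genes it was 0.06 to 0.20. The cell's depth before thinning had r of -0.11 to -0.01 early and -0.38 to -0.22 late. These points share a library and its composition, and the values are descriptions. Pairs of single members, taken among those found in 5% or more of a library's cells, had median r of 0.03 to 0.05 late and a highest value of 0.21. No member averaged more than 0.597 UMIs per thinned cell. Counting noise holds r down at such levels, so these values do not show how closely the members vary together.

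In bulk RNA, where fewer cells of a kind and less RNA per cell cannot be told apart, the members differed between the primary and the metastatic line. In the SW480 over SW620 comparison on day 6, 10 of 31 members at 1 TPM or more were above 1 and 2 below -1 on the log2(TPM + 1) scale, beside 15.9% and 11.5% of all genes. NDRG1 was at 81.7 TPM in SW480 and 3.27 TPM in SW620, LOXL2 at 28.0 and 0.59 TPM, P4HA2 at 57.3 and 10.8 TPM, and STC2 at 60.6 and 14.8 TPM. CA9 stood the other way, at 0.71 TPM in SW480 and 25.8 TPM in SW620, and PLOD2 at 0.45 and 2.41 TPM. EPAS1 was at 126 TPM in SW480 and 0.54 TPM in SW620, and HIF1A at 77.8 and 66.1 TPM. With 1 library a line, these differences have no replicate check.

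**Figure D5:**
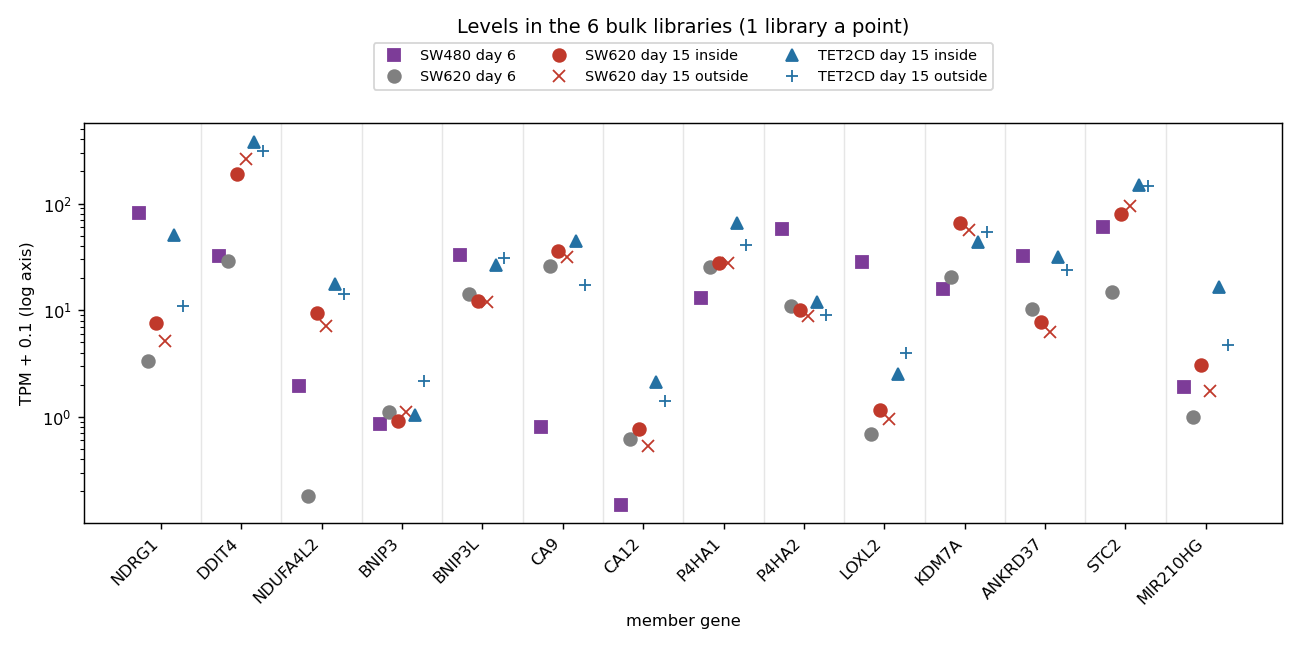
TPM (log axis, 0.1 added) of 14 members in the 6 bulk libraries, 1 library a point. NDRG1, P4HA2 and LOXL2 are highest in SW480 and CA9 lowest there, while DDIT4, NDUFA4L2, KDM7A and STC2 are higher on day 15 than on day 6 in SW620.

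Bulk SW620 cells inside colonies on day 15 were set beside bulk SW620 on day 6. Of 32 members, 5 were above 1 and 0 below -1, beside 5.52% and 5.91% of all genes. DDIT4 went from 28.9 to 190 TPM, NDUFA4L2 from 0.08 to 9.34 TPM, KDM7A from 20.2 to 65.4 TPM, STC2 from 14.8 to 80.0 TPM and MIR210HG from 0.89 to 2.93 TPM. Above 0 lay 20 members and below 0 lay 12, with a median log2 ratio of 0.13. Several members that rose in the single-cell sums changed less in bulk or were lower on day 15. GBE1 was at 22.8 TPM on day 6 and 13.4 TPM on day 15. BNIP3L was at 14.2 TPM on day 6 and 12.2 TPM on day 15, ANKRD37 at 10.2 and 7.58 TPM, P4HA1 at 25.6 and 27.9 TPM and CA9 at 25.8 and 35.96 TPM. The day 6 label names no location and the day 15 library held cells inside colonies, so location and day cannot be told apart between them. SW620 cells outside colonies on day 15 held 13.65 TPM of GBE1, 11.8 of BNIP3L, 6.10 of ANKRD37, 27.4 of P4HA1 and 31.3 of CA9. The part of assay, location and day in the gap to the single-cell sums was not tested. The bulk kit does not mark strand, so reads of CA9 and ARHGEF39, ANKRD37 and UFSP2, NDUFA4L2 and SHMT2 or DEPP1 and RASSF4, which overlap on opposite strands, cannot be told apart.

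TET2CD cells inside colonies on day 15 held more of most members than SW620 cells inside colonies. Of 33 members, 10 were above 1 and 0 below -1, beside 3.12% and 4% of all genes. Above 0 lay 30 members, beside 48.8% of 16361 genes. NDRG1 was at 50.4 TPM in TET2CD and 7.54 TPM in SW620, MIR210HG at 16.3 and 2.93 TPM, ANKRD37 at 31.6 and 7.58 TPM, CITED2 at 23.4 and 6.92 TPM, P4HA1 at 65.9 and 27.9 TPM and DDIT4 at 381 and 190 TPM. In the single-cell sums of day 15, 7 of these 10 members were higher in TET2CD than in SW620, beside 72.8% of all tested genes. Only 4 were (P4HA1, PLOD2, KDM3A and CITED2) after division by the TMM factors, beside 48.3%. The single-cell labels name neither inside nor outside, so cells of unlike location may be compared here. P4HA1 stood at 184 and 142 CPM and PLOD2 at 21.7 and 10.3 CPM. NDRG1 was at 34.5 and 32.3 CPM before that division and at 30.3 and 34.8 after it, and BNIP3L and MIR210HG turned likewise. The other 3 were lower on either scale, namely DDIT4 (181 and 277 CPM), ANKRD37 (34.5 and 50.3 CPM) and DEPP1 (16.2 and 22.1 CPM, with 4.72 and 1.52 TPM in bulk). Beside the members, the 12 mitotic genes summed to 81.2 TPM in TET2CD and 270 TPM in SW620, the ATF4 and CHOP response genes to 2405 and 1704 TPM and the dissociation and immediate early genes to 1742 and 1039 TPM, and their part in the difference was not tested. The bulk difference has 1 library a side and no replicate check, and the SW620 library from inside colonies serves in this, the day and the location comparison.

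Cells outside the colonies were compared with cells inside, with the line as a block, since the study asks what parts dispersing from colony cells. No member was called by edgeR (0 of 35), beside 0% of 17722 genes. Of these genes 1068 had an unadjusted p under 0.05, and DESeq2 called 21 genes. With 1 library for each line and location, the edgeR fit could call little. Its smallest adjusted p over all genes was 0.278. All 12 mitotic genes had an unadjusted p under 0.05 in it (median log2 fold change 0.96), and none was called. A lack of calls in this fit does not show that members were alike inside and outside. The fitted log2 fold change, outside over inside, was below 0 for 25 of 35 members, with a median of -0.23 beside 0.01 for all genes, and 3 members had an unadjusted p under 0.05. CA12 was lowest (-1.64, SE 0.35, edgeR adjusted p = 0.772), from 61 expected counts inside against 22 outside in SW620 and 122 against 40 in TET2CD. Its TPM, which also scales with the effective lengths that RSEM gives each library, parted less, at 0.67 inside and 0.43 outside in SW620 and at 2.01 and 1.32 in TET2CD. NDRG1 followed (-1.25, SE 0.42, edgeR adjusted p = 0.772), with 7.54 TPM inside against 5.04 TPM outside in SW620 and 50.4 and 10.8 TPM in TET2CD. MIR210HG (-1.18, SE 0.46) was at 2.93 and 1.64 TPM in SW620 and at 16.3 and 4.64 TPM in TET2CD, and CA9 (-0.86, SE 0.35) at 35.96 and 31.3 TPM and at 44.3 and 17.0 TPM. Highest were BNIP3 (0.46, SE 0.33), HILPDA (0.24, SE 0.18), KDM7A (0.09, SE 0.13) and GYS1 (0.07, SE 0.13), none of them called. On the log2(TPM + 1) scale 0 of 33 members lay above 1 or below -1 in SW620, beside 1.43% and 1.82% of all genes. In TET2CD 0 of 34 lay above 1 and 3 below -1 (NDRG1, CA9 and MIR210HG), beside 4.85% and 2.8%. TET2 itself was at 38.1 TPM inside and 124 TPM outside in TET2CD, and at 1.15 and 1.29 TPM in SW620. Location and TET2 level cannot be told apart in TET2CD. The 12 mitotic genes summed to 270 TPM inside against 356 TPM outside in SW620 and to 81.2 and 251 TPM in TET2CD. The 9 tested epithelial and intestinal markers had fitted log2 fold changes of -1.26 to -0.09 (median -0.35), none of them called. The part of such shifts in the members' values was not tested.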

How the data were processed

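The authors deposited, for each single-cell library, raw UMI counts per gene and barcode (Cell Ranger 4.0, GRCh38 per the labels), and for each bulk library RSEM expected counts and TPM (Bowtie and RSEM per the processing notes, versions not given in the sources used here). Those notes name mm10 for bulk, although the identifiers are human, and no coordinate was taken from the bulk files. The study's limits on cells were applied (200 to 4500 genes, 1000 to 20000 UMIs, mitochondrial share not over 10%), doublets were not called (fewer cells are stated for the study than these limits leave, and the study first brought its runs to 1 sequencing depth with Cell Ranger aggr, a step not repeated here), and UMIs were summed per library as CPM. Genes were tested with edgeR 4.0.16 (filterByExpr, TMM, quasi-likelihood, two-sided, Benjamini-Hochberg adjustment, threshold 0.05) in R 4.3.3, after rounding of the expected counts. DESeq2 1.42.0 was an alternative, as were upper-quartile factors, no filter, other cell limits, no block and each library left out. Lines summed per day, each line alone and CPM divided by the TMM factors were added after seeing the data. Late against early and outside against inside were fitted with the line as block, and TET2CD against SW620 with the day. The interaction was fitted with line, stage (late or early) and their product, without the day. The fits were tested on simulated data. Cells were thinned to 2000 UMIs for counts per cell, and exact (Clopper-Pearson) 95% intervals cover counting error only. Positions came from GENCODE v44 and promoters from RefSeq. Bulk ratios used log2(TPM + 1) for members at 1 TPM or more in either library, with 1 as the limit. The members and lists were chosen with earlier results of these data known. Late against early, named members were the 8 with the highest and 4 with the lowest log2 fold change, members called against the majority, related pairs and the upstream genes. The other comparisons name fewer members and do not keep to this rule. Others were described by role after their values were seen.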

Additional observations from a re-analysis of the deposited data

Results flagged for a closer look

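The direction outside against inside colonies was opposite in the 2 lines for 3 members at 0.25 or more on the log2(TPM + 1) scale in each. DDIT4 was 0.47 in SW620 and -0.29 in TET2CD, PPFIA4 0.85 and -0.30, and SLC6A8 0.28 and -0.38. PPFIA4 was near the lower limit of 1 TPM, with SW620 going from 0.45 (inside) to 1.61 (outside) and TET2CD from 1.25 to 0.83 TPM, while its expected counts were 21 and 25 in SW620 and 85 and 45 in TET2CD and the count fit over both lines gave -0.52 (SE 0.52). The difference between the lines was not tested, because each line has 1 library inside and 1 outside. In the single-cell libraries no member moved in opposite directions in the 2 lines with early and late libraries apart. No interaction was called, in a fit without the day that could call little. No group of 4 or more replicate samples existed in which a single sample could be set against the others.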

How the results depend on the processing

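Late against early, members called higher ranged from 24 to 25 and called lower from 1 to 2 with each library left out. The count called lower, 1 as reported (SLC6A8), was 0 in TET2CD alone, beside 2694 of 17229 genes. It was 2 with no filter on low counts (SLC6A8 and RAB20), beside 5264 of 26937 genes. Upper-quartile factors gave 26 higher and 1 lower. They moved the median log2 fold change of all genes from 0.04 to 0.21 and the calls over all genes from 5001 higher and 4807 lower to 6413 and 3708, so that changes under about 0.2 read relative to that shift. TET2CD against SW620, 2 members were called higher and 3 lower, and leaving out each library gave 0 to 3 higher and 1 to 3 lower. Without the day block the counts were 0 and 0, beside 42 and 4 of 16526 genes. With no filter on low counts they were 5 and 5, beside 758 and 731 of 26937 genes. With no filter the interaction called 2 members higher (DDIT4 and NDUFA4L2), from 0, beside 8 genes higher and 7 lower of 26937. Outside against inside, 3 members were called lower (CA12, CA9 and NDRG1), from 0, beside 285 genes higher and 187 lower of 31544. The cause was not tested. The location fits with a library left out carry no line block, so that line and location are mixed in them. No member that was called reversed its sign in any alternative. Only uncalled members turned sign. Out of the fitted values of all tested members, called or not, these were 6 of 374, 21 of 272, 15 of 238 and 1 of 140 (late, line, interaction and location). With a library left out they were 7, 33 and 47 of 272 and 36 of 140.

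Thinning to 1500 or 4000 UMIs moved the late minus early difference in members per cell from 1.95 to 1.55 and 3.18, as fewer or more UMIs per cell are read. For CA9 the difference in the share of cells went from 25.5 to 39.0 points at 4000 UMIs, for DDIT4 from 23.9 to 20.1 at 1500 and 34.4 at 4000, and for BNIP3L from 18.9 to 15.2 and 29.9. The other limits on cells moved none of these by more than the spread between libraries. Libraries were blocked by day for TET2CD against SW620 and by line for late against early and for outside against inside, and no group holds a second replicate.

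Each line and day has 1 library, and the late and early sides hold 2 days each, so that handling on a day, culture and day cannot be told apart. Values under about 2 CPM rest on few UMIs. Among them are those of BNIP3, CA12, LOX, STC1, PPFIA4 and TMEM45A in most libraries and the early values of DEPP1 and LOXL2. The day 6 values of NDRG1, NDUFA4L2 and MIR210HG also belong there.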
